A study of Mus musculus with 6 samples.

Results

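The genes described here encode the machinery of protein synthesis. They are all genes of the deposited expression table whose symbol starts with Rpl or Rps (proteins of the large and small subunits of the cytosolic ribosome), Mrpl or Mrps (proteins of the mitochondrial ribosome), Eif (initiation factors) or Eef (elongation factors), without the Rps6k kinases. The rule found 45 of the 1834 genes in the table, and all 45 passed the filter on low values that left 1780 genes for testing. They comprise 17 large-subunit and 9 small-subunit proteins of the cytosolic ribosome, 4 mitochondrial ribosomal proteins, 5 initiation factors, 3 elongation factors and 7 pseudogene copies. RNA came from mouse liver, in a study of Ly6d in metabolic dysfunction-associated steatotic liver disease (MASLD). The 3 AAV-GFP libraries are of wild-type (WT) genotype per the labels and received an adeno-associated virus (AAV) carrying green fluorescent protein. The 3 AAV-Ly6d libraries are labelled as Ly6d overexpression and received the AAV carrying Ly6d. Both groups carry a viral vector and were kept on the same diet per the series text. The diet, the promoter and dose of the vector, and the age and sex of the mice are not given in these sources. Nothing in the labels states whether each library is a different mouse, and the p-values therefore cover library-to-library spread that may be technical.

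A cytosolic ribosome joins a small subunit, which reads the messenger RNA, to a large subunit, which forms the peptide bond. Initiation factors bring the small subunit to the start codon, and elongation factors deliver each aminoacyl-tRNA and move the ribosome along. Mitochondria hold ribosomes of their own, whose proteins are encoded in the nucleus. Most ribosomal proteins are needed in equal numbers. The messenger RNAs of ribosomal proteins are short and abundant. Those of the cytosolic ribosome carry a pyrimidine tract at the 5′ end, through which growth signalling controls their translation. The genes have left many processed pseudogenes in the mouse genome, which are copies made from spliced messenger RNA.

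The deposited values are normalised read counts, that is, reads divided by a factor for each library. The reads of the 1834 genes summed to between 3248078 and 4359932 per library. These are the reads of the listed genes only, so total depth is unknown. The listing order of the genes tracked their p in a DESeq2 fit of these same libraries (Spearman's rho 0.987 over genes, a description only), and the largest p was 0.0911. The rule that chose the 1834 genes is not stated. From this order the table was treated as chosen on a difference between these libraries, in which case adjusted p-values within it understate the error. Ly6d itself had 56.1, 9.68 and 182 normalised reads in AAV-GFP and 3181, 1799 and 3275 in AAV-Ly6d. AAV-GFP replicate 2 stood apart from the other libraries. Its mitochondrial mt-Nd6 value was 108679, against 27183 to 33738 in the other 5 libraries, while its mt-Atp6 value of 1341 was the lowest of the 6 (the others had 1442 to 3146). Its median ratio to the 6-library geometric mean over genes was 1.36, against 0.857 to 1.03.

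Of the genes annotated in GENCODE M21, the table held different shares of each group. It held 32.7% of 52 coding genes named for the cytosolic large subunit and 26.5% of 34 for the small subunit. The share was 21.4% of 14 elongation factor genes, 8.93% of 56 initiation factor genes and 5.13% of 78 mitochondrial ribosomal protein genes. For numbered pseudogene copies it was 2.17% of 322, and for all 21951 protein-coding genes of the annotation it was 7.20%. These shares describe what the table holds and carry no test, since the genes of the table appear to have been chosen on a difference between the same libraries.

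Values were higher in AAV-Ly6d for 44 of the 45 genes, and the size was similar for most of them. The median log2 difference, AAV-Ly6d minus AAV-GFP on log2(value + 1), was 0.49, while over all 1780 tested genes it was -0.67. The differences of 34 of the 45 genes lay between 0.3 and 0.7. Every gene in the deposited table had group means at least 0.323 apart on the log2 scale, so the lower edge of this band supports nothing. By group means, 30 of the 45 were less than 0.6 apart, as were 328 of the 1768 genes with a finite ratio. In 44 genes (97.8%) all AAV-Ly6d libraries lay above all AAV-GFP libraries, against 35.2% of all tested genes. Groups did not overlap in either direction for 84.5% of all tested genes, a share to be read with the apparent choice of the table. In limma, 10 of the 45 rose at an adjusted p under 0.05 and 0 fell. That is 22.2% of them, against 15.9% of all tested genes that rose and 43.9% that changed in either direction, so the count alone does not set these genes far from the background. The 10 and the 44 include Mrps36-ps1, which passed the filter on low values only through the AAV-Ly6d libraries. Its groups had to differ, so it supports nothing. A further 35 had adjusted p between 0.05 and 0.1. Before adjustment, 36 of the 45 lay under 0.05 in limma, where the whole tested table held 1394 such genes out of 1780. The count before adjustment therefore does not set the 45 apart. When the adjustment ran over all 55450 annotated genes, expressed or not, 0 of the 45 passed. Only 1 of all 1780 tested genes passed it. That adjustment takes account of the genes not analysed here.

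**Figure D1:**
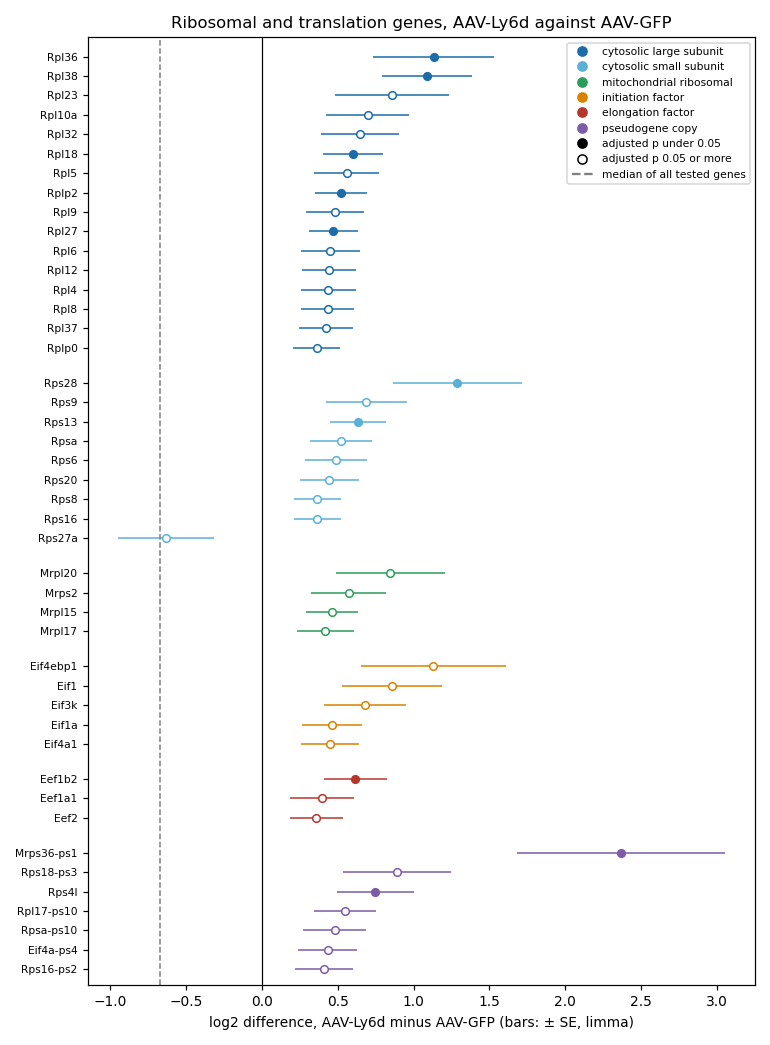
Log2 difference (AAV-Ly6d minus AAV-GFP, on log2 of value + 1) of 44 of the 45 genes by group, with bars of ± SE from limma over 3 libraries a group; filled points have an adjusted p under 0.05 and the dashed line is the median of all tested genes, -0.67. All points but Rps27a lie to the right of 0, and most lie between 0.3 and 0.7.

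The count of calls moved strongly with scaling and with AAV-GFP replicate 2. After each library was rescaled by its median ratio, 40 of the 45 rose (88.9%, against 36.6% of all tested genes), and edgeR on the recovered reads with TMM scaling also called 40 higher (88.9%, against 37.5%). Both left out the same 5 genes, which were Rpl23, Rps27a, Eef2, Eef1a1 and Eif4ebp1. Rescaling moved the median of all tested genes from -0.67 to -0.33, and 69.2% of 941 calls were then higher, against 36.2% of 782 calls before it. Median ratio and TMM scaling assume that most genes are unchanged, and were computed here from the deposited genes alone. In that table, which appears chosen on a difference, only 700 of 1780 tested genes had a difference above 0. The 40 calls rest on an assumption that may not hold here. DESeq2 called 22 of the 45 higher (48.9%, against 24.6% of all genes), and 0 after adjustment over the annotation (against 2.29%). Without AAV-GFP replicate 2, 16 of the 45 rose (35.6%, against 16.3%) and Rps27a fell. Without AAV-GFP replicate 3 only Rpl38 passed (1 of 45, against 3.27% of all tested genes that rose). Without AAV-GFP replicate 1, 0 of the members passed, and 61 of all 1744 tested genes rose. Without AAV-Ly6d replicate 1, 2 or 3, 0 of the members passed. Over all tested genes 0 of 1764, 21 of 1765 and 6 of 1758 then rose, so few genes of any kind passed. In these fits 4 to 24 of the members had an unadjusted p under 0.05. Under other settings the share of the members was above that of all tested genes with some and below it with others. It was above with a pseudocount of 0.5 (9 of 45, against 15.1%) and without the filter on low values (8 of 45, against 13.9%). It was below with a mean of at least 10 (4 of 44, against 13.3%) and with a pseudocount of 10 (2 of 45, against 11.6%). Without the mean-variance trend it was also below (2 of 45, against 7.75%). The 44 genes with a difference above 0 also had it after rescaling, with edgeR and with DESeq2. Rescaling and edgeR moved the median of all tested genes upward, by 0.34 and 0.25, and DESeq2 kept the deposited factors. These scalings could therefore hardly turn a difference above 0, and the unchanged sign supports nothing.

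**Figure D2:**
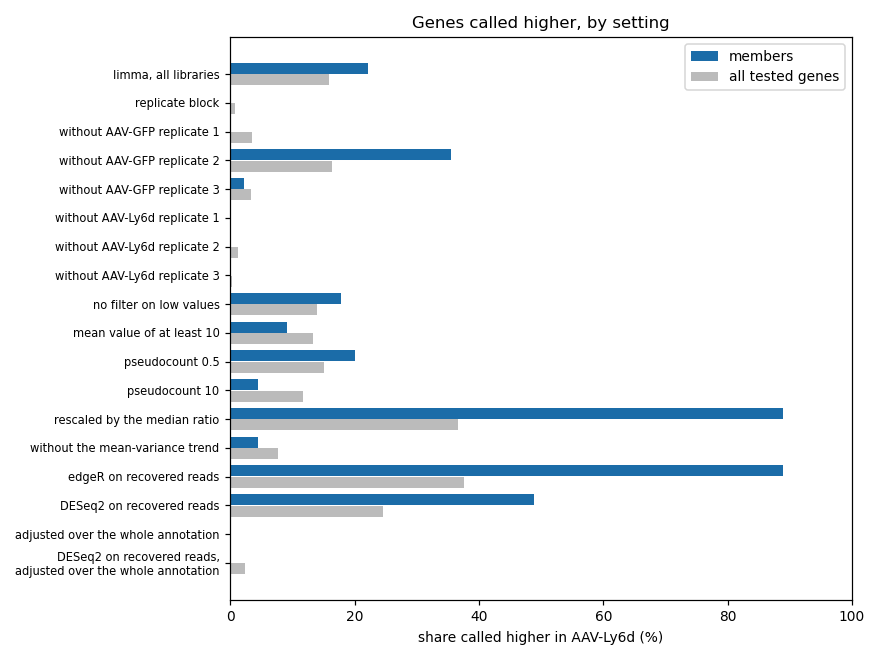
Share of the 45 genes (blue) and of all tested genes (grey) called higher in AAV-Ly6d, in percent, under each way of processing. The blue share runs from 0 with several settings to 88.9% with median ratio rescaling or edgeR, and the grey share moves with it.

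Of the 17 proteins of the large subunit 5 rose in limma, against 15.9% of all tested genes. Counts of calls were not compared between the groups of genes by a test. All 17 had a difference above 0, from 0.36 to 1.13 with a median of 0.49. Rpl38, a protein of the large subunit known for its part in translating Hox messenger RNAs in the embryo, lies on chromosome 11 (GRCm38 114668524 to 114672331, plus strand). Its normalised read counts were 235, 139.9 and 293 in AAV-GFP and 492, 402 and 470.0 in AAV-Ly6d. The lowest AAV-Ly6d library lay above the highest AAV-GFP library, and AAV-GFP replicate 2 was the lowest of all. Rpl38 rose 2.04-fold, with a log2 difference of 1.09 ± 0.30 (SE, n = 3 per group; limma, adjusted p = 0.0398).

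Rpl36 (chromosome 17, 56613416 to 56614243, plus strand) had 796, 302 and 961 in AAV-GFP and 1386, 1259 and 1401 in AAV-Ly6d. The AAV-Ly6d libraries were close to each other, and AAV-GFP replicate 2 was far below the other AAV-GFP libraries. Rpl36 rose by a log2 difference of 1.13 ± 0.40 (SE, limma, adjusted p = 0.04996), and without AAV-GFP replicate 2 the difference was 0.62 (adjusted p = 0.0329). Rpl18 (chromosome 7, 45715457 to 45720836, plus strand) had 2076, 1453 and 2097 in AAV-GFP and 2855, 2629.9 and 2919 in AAV-Ly6d. It rose 1.49-fold, a log2 difference of 0.60 ± 0.20 (SE, limma, adjusted p = 0.0464). Of its exonic bases, 373 are shared with Sphk2 on the opposite strand, and no source used here says whether reads were counted by strand.

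Rplp2 and Rpl27 rose with little spread in either group, and in neither was AAV-GFP replicate 2 the lowest library. Rplp2 encodes an acidic protein of the stalk on which elongation factors dock, and lies on chromosome 7 (141447370 to 141451585, plus strand). It had 643, 699 and 742 in AAV-GFP and 928, 993 and 1067 in AAV-Ly6d. Its log2 difference was 0.52 ± 0.17 (SE, limma, adjusted p = 0.0464). Rpl27 (chromosome 11, 101442298 to 101445529, plus strand) had 1084, 1226 and 1230.3 against 1686, 1565 and 1645. Its log2 difference was 0.47 ± 0.16 (SE, limma, adjusted p = 0.0493). The differences of both were as large without AAV-GFP replicate 2, at 0.52 and 0.50.

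The other 12 large-subunit genes did not pass the test. Rplp0, the base of the same stalk, had 5481, 5109 and 5463 in AAV-GFP and 7015, 6469.7 and 7138 in AAV-Ly6d (log2 difference 0.36, limma, adjusted p = 0.0637). Rpl5, which carries 5S ribosomal RNA and can bind the p53 regulator Mdm2, had 3241, 2057 and 3155 against 3862, 4072 and 4278 (0.56, limma, adjusted p = 0.0562). It shares 953 exonic bases with Fam69a on the opposite strand. Rpl23 had 1411, 547 and 1560.3 against 1976, 1845 and 1965 (0.86, limma, adjusted p = 0.0641), with the low value again in AAV-GFP replicate 2. None of these 3 overlapped between groups. Without that library the difference of Rpl23 was 0.38 (limma, adjusted p = 0.0483) and that of Rpl5 was 0.35 (adjusted p = 0.0503). Adjusted p for the 12 lay above 0.05 and reached 0.0641 at most.

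Among the 9 proteins of the small subunit 2 rose, against 15.9% of all tested genes, and 8 had a difference above 0. Rps13 (chromosome 7, 116331505 to 116334195, minus strand) had 707, 867 and 943 in AAV-GFP and 1259.8, 1237 and 1393 in AAV-Ly6d. It rose 1.55-fold, a log2 difference of 0.64 ± 0.18 (SE, limma, adjusted p = 0.0409), and the difference was 0.66 without AAV-GFP replicate 2. Rps28 (chromosome 17, 33819027 to 33824562, minus strand) was among the least abundant, with 93.9, 44.1 and 137 against 266, 169 and 187. It rose by a log2 difference of 1.29 ± 0.43 (SE, limma, adjusted p = 0.0464), which became 0.84 (adjusted p = 0.0537) without AAV-GFP replicate 2. It shares 88 exonic bases with Kank3 on the opposite strand.

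Rps9 had 2672, 1411 and 2645 in AAV-GFP and 3359, 3360.4 and 3702 in AAV-Ly6d (log2 difference 0.69, limma, adjusted p = 0.0562). Rpsa, which is also known as a laminin receptor, had 5401, 3570.4 and 5211 against 6452, 6608 and 7004 (0.52, limma, adjusted p = 0.0570). Rps6, the ribosomal target of S6 kinase, had 3319.7, 2189.8 and 3222 against 3877, 4104 and 4049 (0.49, limma, adjusted p = 0.0625). In each of the 3 genes AAV-GFP replicate 2 was the lowest library and the groups did not overlap. Without it the differences were 0.38 for Rps9 (limma, adjusted p = 0.0460), 0.33 for Rpsa (adjusted p = 0.0537) and 0.29 for Rps6 (adjusted p = 0.0625).

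Rps27a was the only one of the 45 genes with lower values in AAV-Ly6d, and it was picked out after its values were seen. The gene encodes a ribosomal protein fused to ubiquitin. Its normalised read counts were 1713, 681 and 1006 in AAV-GFP and 694, 664 and 685 in AAV-Ly6d. The groups overlapped, since AAV-GFP replicate 2 lay within the AAV-Ly6d values, while AAV-GFP replicate 1 was far above the rest. Its log2 difference was -0.63 ± 0.32 (SE, limma, adjusted p = 0.0870), and it was -0.29 (adjusted p = 0.495) after median ratio rescaling. Leaving out AAV-GFP replicate 1 gave -0.28 (limma, adjusted p = 0.3004), and leaving out AAV-GFP replicate 2 gave -0.95 (adjusted p = 0.0360). It shares 160 exonic bases with Clhc1 on the opposite strand.

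Of the 3 elongation factors 1 rose, against 15.9% of all tested genes, and Eef1a1 and Eef2 had the largest values of the 45 genes. Eef1b2, the exchange factor that reloads the tRNA carrier eEF1A with GTP, lies on chromosome 1 (63176825 to 63180486, plus strand) and had 1748, 1164 and 1743 in AAV-GFP and 2243, 2419 and 2355 in AAV-Ly6d. It rose 1.51-fold, a log2 difference of 0.62 ± 0.21 (SE, limma, adjusted p = 0.0471). Eef1a1, the tRNA carrier itself, had 76398, 56478 and 71533 against 87986, 85909.5 and 93418 (log2 difference 0.40, limma, adjusted p = 0.0999). Eef2, which moves the ribosome by a codon, had 28347, 25540.3 and 26249 against 34763, 32189.9 and 35654 (0.36, limma, adjusted p = 0.0815). Neither Eef1a1 nor Eef2 passed under limma, rescaling or edgeR, although their groups did not overlap, and DESeq2 called Eef2.

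Of the 5 initiation factors 0 passed in limma. All 5 had an unadjusted p under 0.05, as had 1394 of all 1780 tested genes. Eif1, which guards the choice of start codon, had 5236, 2284 and 5286 in AAV-GFP and 7463, 6311 and 8009.5 in AAV-Ly6d (log2 difference 0.86, adjusted p = 0.0561). Eif3k, a subunit of the scaffold factor eIF3, had 620.2, 328 and 607 against 839.9, 780.3 and 774 (0.68, limma, adjusted p = 0.0592). Eif4a1, the helicase that opens the 5′ leader, had 3520.0, 2431 and 3358 against 4146, 4151 and 4219 (0.45, limma, adjusted p = 0.0634). Eif4ebp1 encodes a repressor that holds the cap-binding protein eIF4E and is released by mTORC1 phosphorylation. Its values were 394, 115 and 459.9 against 598, 625 and 591 (1.13, limma, adjusted p = 0.0626). AAV-GFP replicate 2 was the lowest library for all 5, and without it the difference of Eif1 was 0.46 (limma, adjusted p = 0.0481) and that of Eif4ebp1 0.50 (adjusted p = 0.0434). Those of Eif3k and Eif4a1 were then 0.38 (limma, adjusted p = 0.0515) and 0.28 (adjusted p = 0.0663).

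The 4 mitochondrial ribosomal proteins gave 0 calls in limma and a median difference of 0.52. An unadjusted p under 0.05 was found for 3 of them and for 1394 of all 1780 tested genes. Mrpl15 had 639, 598 and 685 in AAV-GFP and 844, 870.0 and 931 in AAV-Ly6d (log2 difference 0.46, limma, adjusted p = 0.0540). Mrpl20 had 309.6, 127 and 322 against 419, 437 and 405 (0.85, limma, adjusted p = 0.0630). Mrps2 had 484, 300.2 and 494 against 629.9, 681 and 552 (0.57, limma, adjusted p = 0.0637), and Mrpl17 had 762, 602 and 791 against 983, 914 and 964 (0.42, limma, adjusted p = 0.0656). In all 4 the AAV-Ly6d libraries lay above the AAV-GFP libraries, and edgeR and the rescaled fit called each of them. Without AAV-GFP replicate 2, the lowest library for all 4, Mrpl20 had 0.41 (limma, adjusted p = 0.0563) and Mrps2 had 0.34 (adjusted p = 0.0826). With all libraries their differences lay within the range of the cytosolic proteins, from 0.42 to 0.85, and the difference between the 2 groups of genes was not tested.

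Pseudogene copies had differences from 0.41 to 2.37, with 2 of 7 called higher, against 15.9% of all tested genes. A read from a copy that is nearly identical to its parent gene could be assigned to either, so their values are uncertain. Aligned to the parent transcript, 6 of the 7 copies were between 99.3% and 100% identical, and Rps4l alone was distant, at 79.7% identity to Rps4x. The share of the copy's windows of 50 bases found unchanged in the parent was 0% for Rps4l and between 61.1% and 100% for the other 6. Stretches of 60 coding bases (GENCODE M21, GRCm38) are given for the 3 copies whose parent gene is itself among the 45, to show how little separates their reads, with capitals for the bases that differ.
Rpsa-ps10, bases 160 to 219: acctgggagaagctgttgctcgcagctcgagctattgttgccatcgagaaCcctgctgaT
Rpsa, bases 160 to 219: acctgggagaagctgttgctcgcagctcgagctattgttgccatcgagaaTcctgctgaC
Eif4a-ps4, bases 475 to 534: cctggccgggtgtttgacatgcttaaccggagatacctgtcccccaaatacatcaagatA
Eif4a1, bases 475 to 534: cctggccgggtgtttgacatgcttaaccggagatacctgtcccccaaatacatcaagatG
Rps16-ps2 and Rps16, bases 1 to 60, identical: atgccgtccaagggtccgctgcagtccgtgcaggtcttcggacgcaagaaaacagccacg

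Rps4l (chromosome 6, 148354656 to 148355598, plus strand), annotated as a transcribed processed pseudogene, had 176, 125 and 123 in AAV-GFP and 211, 274 and 223 in AAV-Ly6d. It rose by a log2 difference of 0.75 ± 0.25 (SE, limma, adjusted p = 0.0479), with the lowest value in AAV-GFP replicate 3. Mrps36-ps1 (chromosome 17, 53866715 to 53867020, minus strand) rests on 1 read in AAV-GFP and 18 in AAV-Ly6d, counted as 0, 0 and 1 against 2, 9 and 7. The ratio was 19.2 with a 95% exact interval of 3.03 to 799.9 that covers counting error only. It passed the filter only through the AAV-Ly6d libraries, so its groups had to differ, and its limma log2 difference of 2.37 (adjusted p = 0.0409) depends on the pseudocount.

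The 3 copies with a parent among the 45 had differences close to that parent. Rps16-ps2 had 283, 299 and 338 in AAV-GFP and 400.5, 409 and 410.2 in AAV-Ly6d, a log2 difference of 0.41, where Rps16 had 0.36. Rpsa-ps10 had 226, 209 and 264 against 314, 333 and 324, a difference of 0.48, where Rpsa had 0.52. Eif4a-ps4 had 429.6, 370.2 and 492 against 544, 580.0 and 610.3, a difference of 0.43, where Eif4a1 had 0.45. Whether these reads came from the copy or the parent was not tested. The other copies were Rpl17-ps10, with 1041, 847 and 1265 against 1495, 1401 and 1665 (0.55, limma, adjusted p = 0.0538), and Rps18-ps3, with 34.8, 42.0 and 21.9 against 58.3, 51.8 and 70.7 (0.89, limma, adjusted p = 0.0595).

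Summed over the 45 genes, the normalised reads were 179899, 134930 and 173035 in AAV-GFP and 217408, 210858 and 228542 in AAV-Ly6d, a ratio of group means of 1.35. Over the 26 cytosolic ribosomal proteins the sums were 58253, 42132 and 57741 against 71767, 71215 and 75963, a ratio of 1.38. AAV-GFP replicate 2 had the lowest sum in both. It was the lowest of the 6 libraries for 37 of the 45 genes (82.2%), against 28.3% of all tested genes, and for 22 of the 26 cytosolic ribosomal proteins but 3 of the 7 pseudogene copies. The log2 difference of 18 of the 45 was over 1.5 times its value without that library, and the median of the 45 was 0.38 without it. The median coefficient of variation of the 45 was 19.2% in AAV-GFP and 4.70% in AAV-Ly6d, against 29.7% and 19.7% over all tested genes. The part of AAV-GFP replicate 2 in the sizes given above is measured by these values, and the direction was the same without it for all 45 genes.

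**Figure D3:**
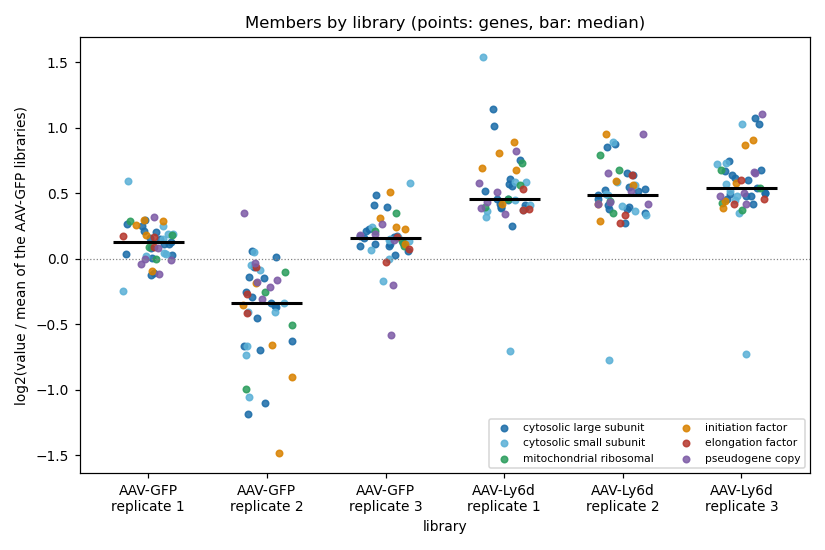
Each point is the value of a gene in a library divided by the mean of that gene's 3 AAV-GFP libraries, on a log2 axis, coloured by group of genes, with a bar at the median, for 44 of the 45 genes less Mrps36-ps1, which is left out for its zeros. The points of AAV-GFP replicate 2 lie mostly below 0 and are widely spread, and those of the 3 AAV-Ly6d libraries lie close together above 0, apart from Rps27a.

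Levels are comparable between genes only per length, so each normalised read count was divided by the length of the principal transcript. Eef1a1 stood highest at 37980 ± 5789 (SD, n = 3) normalised reads per kilobase in AAV-GFP and 49668 ± 2161 in AAV-Ly6d. Eef2 followed at 8647 ± 472 in AAV-GFP, and the ranges of Eef1a1, Eef2 and the third gene, Rplp0 (3940 ± 155), did not overlap. From Rplp0 downward the AAV-GFP levels of neighbours in the order overlapped, except between Rpl37 and Rps20, between Rps4l and Mrpl17, and between Rps18-ps3 and Mrps36-ps1, the lowest. Next to Rplp0, Rpl4 had 3919 ± 630 and Rps6 3315 ± 713 per kilobase. Cytosolic ribosomal proteins ran down to Rps28 at 234 ± 118 per kilobase, although the ribosome holds most of its proteins in equal numbers. The 4 mitochondrial ribosomal proteins lay between 98.4 and 331 per kilobase in AAV-GFP. The lengths are those of annotated transcripts, from 306 to 7300 bases for the 45, and a transcript shorter than annotated in liver would raise its true level.

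**Figure D4:**
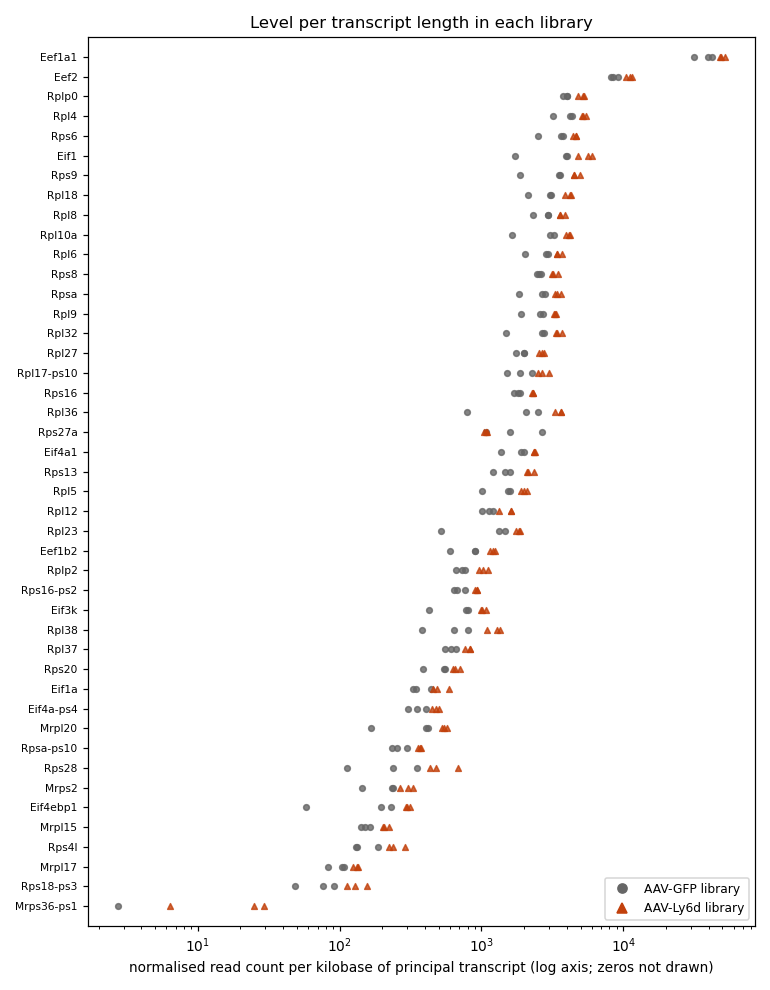
Normalised read count per kilobase of principal transcript (log axis) for 44 of the 45 genes, ordered by the mean of the AAV-GFP libraries; circles are AAV-GFP and triangles AAV-Ly6d libraries, and zeros are not drawn. Eef1a1 and Eef2 lie apart at the top, and the triangles lie to the right of the circles for every gene but Rps27a.

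Transcript length and abundance moved with direction across the whole table. The 45 genes had a median principal transcript of 943 bases, against 3153 over all tested genes. Among the other tested genes with a transcript of up to 1500 bases, 164 of 282 (58.2%) had a difference above 0, with a median of 0.51, and among those over 1500 bases 492 of 1452 (33.9%) did, with a median of -0.72. Of the 45 genes, 31 of the 32 with a transcript of up to 1500 bases and all 13 longer ones lay above 0. Among the other genes with a mean of at least 500 normalised reads, 339 of 555 (61.1%) lay above 0, with a median of 0.46. The part of length and abundance in the differences of the 45 genes was not tested.

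**Figure D5:**
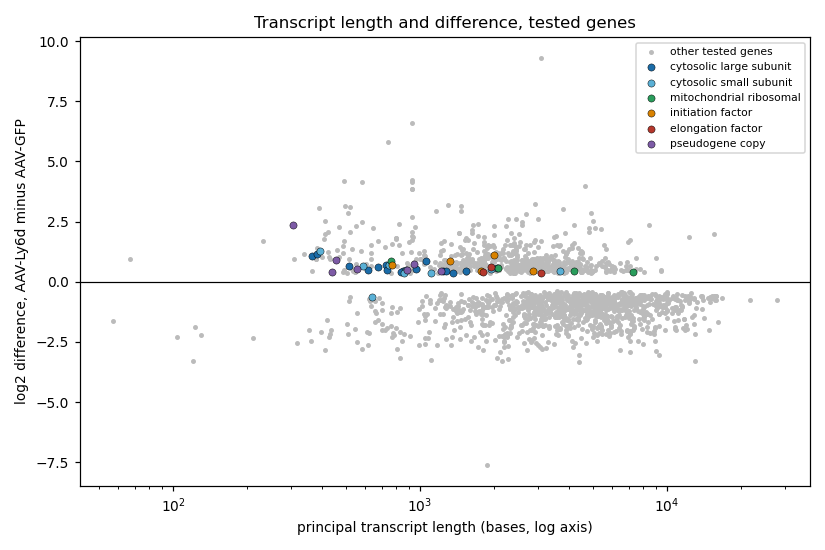
Log2 difference (AAV-Ly6d minus AAV-GFP) against principal transcript length in bases (log axis) for the other tested genes (grey) and 44 of the 45 genes by group (coloured). The coloured points lie mainly among the shorter transcripts and in a narrow band above 0, and longer grey points lie more often below 0.

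Promoter sequence was examined for what the genes share apart from their names. RefSeq windows on GRCm38.p6, from 250 bases before to 50 after the start, matched 28 of the 45 genes. The sequence CCGGAAG, a site type of the ETS factor GABP, was searched on both strands. It stood in 8 of the 28 windows (28.6%), against 10.1% of 1222 tested genes and 9.93% of 27025 genes with a window. The 8 genes were Rpl6, Rpl37, Rpl38, Rplp2, Rps6, Rpsa, Eef1b2 and Mrpl17. A run of at least 8 pyrimidines was searched at or within a few bases of the start, near where the 5′ tract of these messenger RNAs begins. It stood in 7 of 28 (25%), against 12.3% of the tested genes and 11.4% of all genes. The sequence AAGATGG, a YY1 type, stood in 2 of 28, and TATAAA in 3 of 28, against 7.28% and 15.7% of all genes. These shares have no test here and a match is not a binding site.

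Windows from 120 bases before to 25 after the annotated start are given for the gene with the smallest p among the large-subunit, small-subunit, elongation and initiation genes. Capitals mark CCGGAAG and a pyrimidine run at or within a few bases of the start. Those of Rpl38 and Eef1b2 hold a match, and those of Rps13 and Eif1 have none of these letters.
Rpl38, chr11:114668460-114668604, plus strand: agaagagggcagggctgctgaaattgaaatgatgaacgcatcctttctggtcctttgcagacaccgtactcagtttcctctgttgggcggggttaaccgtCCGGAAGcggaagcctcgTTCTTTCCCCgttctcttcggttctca
Rps13, chr7:116334166-116334310, minus strand: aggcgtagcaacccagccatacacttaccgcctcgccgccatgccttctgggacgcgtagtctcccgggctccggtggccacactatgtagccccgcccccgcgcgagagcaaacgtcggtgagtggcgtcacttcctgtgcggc
Eef1b2, chr1:63176711-63176855, plus strand: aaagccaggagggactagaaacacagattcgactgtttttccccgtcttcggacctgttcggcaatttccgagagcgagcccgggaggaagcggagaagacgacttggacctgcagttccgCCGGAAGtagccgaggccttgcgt
Eif1, chr11:100319829-100319973, plus strand: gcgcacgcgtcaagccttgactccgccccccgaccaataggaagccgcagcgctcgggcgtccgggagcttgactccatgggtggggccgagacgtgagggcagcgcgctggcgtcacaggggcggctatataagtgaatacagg

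Other genes of the pathway were few in the table. Of 114 listed ribosome biogenesis genes 4 were tested and 0 passed in limma, all with differences above 0: Ubtf, a factor for transcription of ribosomal DNA (0.87), Rrp15 (0.62), Rcl1 (0.49) and Imp3 (0.43). Of the translational control list 9 were tested, of which 2 rose and 1 fell. Mknk2, a kinase of eIF4E, rose by 0.93 ± 0.25 on the log2 scale (SE, limma, adjusted p = 0.0384), and Trib3, a pseudokinase induced in the stress response to unfolded protein and amino acid shortage, rose by 1.23 ± 0.37 (adjusted p = 0.0414). Rps6ka2, a kinase of the RSK family, fell by 1.45 ± 0.34 (SE, limma, adjusted p = 0.0324). Atf5, a stress-induced transcription factor, had a difference of 1.53 and did not pass (limma, adjusted p = 0.0526). Of the list made for ribosomal proteins of other names and associated factors, 3 genes were tested. Hint1, which is not a ribosomal protein, rose by 0.65 (limma, adjusted p = 0.0462), and its link to the ribosome was not examined. Rack1, a scaffold on the small subunit, had 0.41 and Fau, which encodes a ubiquitin-like protein fused to a small-subunit protein, had 0.36, and neither passed. The single tested genes of 3 further lists did not pass: the tRNA synthetase gene Sars (0.45), Ddx28 of mitoribosome assembly (0.60) and Abcf1 (0.45). Without AAV-GFP replicate 2 the difference was 0.43 for Ubtf, 0.86 for Atf5 and 0.35 for Ddx28, and Mknk2, Trib3, Rps6ka2 and Hint1 still passed.

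Markers of the cell types a liver sample can hold moved with the same groups. Of 16 hepatocyte markers 6 were tested, of which Apoa1 (1.12), Ass1 (0.77) and Hnf4a (0.65) rose and 0 fell. Apob of the same list had -0.61 (limma, adjusted p = 0.261), with 743167 in AAV-GFP replicate 2 and 186314 to 216089 in the other libraries. The summed level of the 6 was 421163 to 907745 in AAV-GFP, highest in replicate 2, and 550774 to 574924 in AAV-Ly6d. Of 10 endothelial markers 6 were tested and all 6 fell, and their summed level was 5371 to 9205 in AAV-GFP and 1900 to 2606 in AAV-Ly6d, with the highest sum in AAV-GFP replicate 2. Of 9 stellate cell markers 5 were tested and 4 fell, with sums of 2326 to 4060 against 695 to 1493. Of 6 erythroid markers 4 were tested and 1 fell, with sums of 2704 to 5832 against 1896 to 2849. Sox9, the tested cholangiocyte marker, rose (1.38), and the tested proliferation gene Mki67 had -0.87 and did not pass. Of the Kupffer cell and lymphocyte markers 0 were among the 1834 genes. In bulk tissue, fewer cells of a type and less RNA per cell cannot be told apart, and the part of cell makeup in the ribosomal and translation gene differences was not tested.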

How the data were processed

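RNA of mouse liver was measured by sequencing in 3 AAV-GFP and 3 AAV-Ly6d libraries. The submitters' processing notes name Bowtie 0.12.2 and mm10, without a read counter, strand setting or normalisation method (not given in the sources used here). Normalised read counts were deposited by the authors and are treated here as a non-negative signal. Per library, 100% of values were whole multiples of a single step within 0.001, which gave the recovered reads. Testing covered the 1780 genes that reached a value of 1 in 3 or more libraries, on log2(value + 1) with limma 3.58.1 in R 4.3.3 (trend, no covariates, Benjamini-Hochberg, adjusted p under 0.05). On that scale the change of weakly expressed genes is understated. Recovered reads were also fitted with edgeR 4.0.16 (quasi-likelihood, 967 calls) and DESeq2 1.42.0 (1139 calls). The limma script was tested on simulated data. Replicate libraries of a group differed by more than counting noise.

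Symbols, positions and transcripts come from GENCODE M21 on GRCm38 (1833 of 1834 identifiers matched) and promoters from RefSeq on GRCm38.p6. Named with library values were all called genes and the 4 with the smallest p in each group, and of each other list up to 4 genes are named with their log2 differences. A few others were added after their values were seen: Rpl5, Rpl23, Rplp0, Rps6, Rps27a and the copies with a parent among the 45. The genes and lists were chosen with earlier results of these data known. The values of 1 of the 45 genes are not reported here by name or plotted, and it stays in the counts and sums. Alternatives are described in the closing section.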

Additional observations from a re-analysis of the deposited data

How the results depend on the processing

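The count of ribosomal and translation genes that passed, 10 of 45 and all higher, was sensitive to most choices. All calls were also higher unless stated. It was 40 after median ratio rescaling, 40 with edgeR, 22 with DESeq2, 9 with a pseudocount of 0.5, 8 without the filter on low values, 4 with a mean of at least 10, 2 with a pseudocount of 10 and 2 without the mean-variance trend. It was 0 at an adjusted p under 0.01. It was 0 over the whole annotation with limma (36 at an unadjusted p under 0.05), where 1 of all 1780 tested genes passed. It was 0 with DESeq2 adjusted likewise (37 at an unadjusted p under 0.05), where 117 of 1834 genes passed. That DESeq2 alternative was added after the data were seen. Leaving out a library gave 0 to 607 calls over all tested genes. Among the 45 it gave 0 to 17 calls, 0 to 16 of them higher, with 4 to 40 at an unadjusted p under 0.05. The highest count, without AAV-GFP replicate 2, held 7 of the 10 genes. Rps28, Mrps36-ps1 and Rps4l did not pass there. The median log2 difference of 0.49 was 0.83 after rescaling, 0.75 with edgeR and 0.38 to 0.58 with a library left out. None of these alternatives turned the direction of the 3 summary values, of the 24 ribosomal and translation genes named by rule, of Rps27a or of the 16 genes of the other pathway lists. Those that change only the adjustment, the threshold or the trend leave the log2 difference as it is and could not turn it. Rescaling and edgeR moved differences upward. The marker genes, the unnamed copies and the other named genes were not followed through every setting. The cause of these shifts was not tested.

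With the replicate number as a block, 0 of the 45 passed in limma (19 at an unadjusted p under 0.05) and 48 genes passed in all, against 782. Same-numbered libraries did not deviate together over the genes of the table (correlations of -0.02, -0.05 and -0.06). These values show no pairing by number, but they cannot exclude it, because the table appears chosen on the group difference. The labels do not state whether the numbers pair the libraries. Low counts limit Mrps36-ps1 and Rps18-ps3, and 3 libraries a group cannot reach an exact permutation p under 0.1.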

Other observations

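Besides the numbered copies, 14 pseudogenes with unnamed gene symbols in the table had their closest transcript among ribosomal or translation factor genes. Of these 12 were tested, 9 had a difference above 0 and the median was 0.65. In limma 3 were called higher and 2 lower, all at low counts. Of all tested genes, 15.9% were called higher and 43.9% in either direction, so these counts do not set the copies apart. Gm2387, Gm10548 and Gm15779 passed the filter on low values only through the group where they are high, so their groups had to differ and these 3 calls support nothing. Gm4786, a copy of Rpl7a, had 17.4, 7.53 and 18.6 normalised reads in AAV-GFP and 60.3, 59.8 and 34.8 in AAV-Ly6d. Gm13408, a copy of Rps3a1, had 4.84, 4.30 and 0.844 against 12.6, 12.0 and 13.1. Gm2387, a copy of Rpl10, was at 0 in all 3 AAV-GFP libraries and had 2.92, 3.99 and 4.35 in AAV-Ly6d. Those with lower values were Gm10548, a partial match to Rpl29 with 2.90, 10.8 and 3.38 in AAV-GFP, and Gm15779, a copy of Rpl27 with 4.84, 9.68 and 5.06, and both were at 0 in all AAV-Ly6d libraries. Those 5 were picked out because they were called. Gm15500, identical to Rpl5 over all its 894 bases, had 413, 229 and 446 in AAV-GFP and 547, 555 and 545 in AAV-Ly6d, and as in Rpl5 the lowest value was in AAV-GFP replicate 2. Reads of such copies and of their parent genes cannot be told apart here where the sequences are identical.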
